A study of Mus musculus with 308 samples.

Results

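The genes described here are 36 listed genes of the ATF4 pathway and of the endoplasmic reticulum (ER) stress response, taken as 2 branches: 22 genes around the transcription factor ATF4 and 14 genes of the ER chaperone and degradation machinery. A gene counted as measured where at least 1 probe set of the array carried its symbol and no other. This held for 35 of the 36 genes and 67 probe sets, out of 17097 genes measured in all: 21 genes (38 probe sets) in the ATF4 branch and 14 genes (29 probe sets) in the chaperone branch. Mthfd2 was left out, since both of its probe sets also carry the symbol Gsn. The 308 arrays came from jejunum, kidney, mesenteric lymph node, inguinal lymph node, spleen, whole blood and brain of C57BL/6 mice. Mice of the vehicle and fumarate groups were dosed once a day for 10 days, with tissue taken 12 h after the final dose. Vehicle mice received 0.8% hydroxypropyl methylcellulose. Dimethyl fumarate (DMF) was given at 100 mg/kg (the group DMF100) or 179.2 mg/kg (the group DMF179.2). Mice of the group MEF79.2 received a mixture of monoethyl fumarate (MEF) salts with calcium, magnesium or zinc, 79.2 mg/kg in sum. The combination group received both the lower DMF dose and this mixture. A last group carries the label Nav, whose meaning, dose and dosing schedule are not stated in the labels. The labels name no mutation and no age. Each group held between 5 and 8 arrays in a tissue.

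ATF4 is a transcription factor whose translation increases when kinases of the integrated stress response phosphorylate the initiation factor eIF2 alpha, for example when amino acids are scarce, heme is low or proteins misfold in the ER. Its targets import amino acids, synthesise serine, glycine and asparagine, and charge transfer RNAs, and some of them, such as Ddit3 (CHOP), Trib3 and Chac1, are known from prolonged stress. The ER chaperone genes answer mainly to the factors ATF6 and spliced XBP1, and in secretory tissues such as the small intestine they are expressed at a high level without any added stress. DMF and MEF are electrophilic esters of fumarate that react with thiols, including glutathione, and are best known for activating the factor NRF2.

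Short sequence elements near the transcription starts were looked up to show which members of each branch carry them. RefSeq promoter windows (GRCm38.p6, from 250 bases before to 50 after the annotated start) were found for 33 of the 36 genes, all but Hyou1, Manf and Slc7a5. The core of the amino acid response element, the site bound by ATF4 with a C/EBP partner, was searched on both strands as TGATGNAA. It was present in 7 of the 21 ATF4-branch windows (Aars, Asns, Chac1, Gars, Nupr1, Trib3 and Vldlr), in 1 of the 12 chaperone windows (Herpud1) and in 3.97% of all 32851 windows. The tighter form TGATGCAA occurred in Aars, Chac1, Nupr1, Vldlr and Herpud1, against 0.895% of all windows. The ER stress response element, searched as CCAAT, any 9 bases and CCACG, was present in 6 of the 12 chaperone windows (Calr, Creld2, Dnajc3, Hsp90b1, Hspa5 and Pdia6), in 0 of the 21 ATF4-branch windows and in 0.119% of all windows. Its second form, ATTGG, any base and CCACG, was found in Herpud1 and in 0.0365% of all windows. The unfolded protein response element TGACGTGG was in no member window and in 0.676% of all windows. A match is a description of letters, and a window without one says nothing about the factor.

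The 250 bases before the start of 6 members are printed 5′ to 3′ on the gene's strand, because these genes recur in the results and show each element in place. Capitals mark a matched element. A match on the opposite strand appears as its reverse complement, so that the amino acid response element of Chac1, Nupr1 and Herpud1 reads TTGCATCA, the second ER stress response element of Hsp90b1 starts with CGTGG, and Herpud1 carries elements of both kinds.
Asns (chr6:7693210-7693459, minus strand): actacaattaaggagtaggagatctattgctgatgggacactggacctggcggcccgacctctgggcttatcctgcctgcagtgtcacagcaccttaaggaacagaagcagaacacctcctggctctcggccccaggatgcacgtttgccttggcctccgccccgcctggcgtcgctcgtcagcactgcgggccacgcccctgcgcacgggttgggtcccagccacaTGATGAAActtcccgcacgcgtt
Chac1 (chr2:119350992-119351241, plus strand): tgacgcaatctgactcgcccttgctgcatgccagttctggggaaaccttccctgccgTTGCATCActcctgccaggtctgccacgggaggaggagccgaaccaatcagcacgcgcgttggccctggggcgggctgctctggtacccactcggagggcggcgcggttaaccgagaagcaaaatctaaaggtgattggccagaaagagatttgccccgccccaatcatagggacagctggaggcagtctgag
Nupr1 (chr7:126625471-126625720, minus strand): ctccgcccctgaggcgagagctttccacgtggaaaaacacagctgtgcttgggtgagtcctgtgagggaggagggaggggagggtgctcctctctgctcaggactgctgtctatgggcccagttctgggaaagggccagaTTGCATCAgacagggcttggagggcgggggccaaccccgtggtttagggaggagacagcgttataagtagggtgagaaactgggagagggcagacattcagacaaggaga
Hspa5 (chr2:34771840-34772089, plus strand): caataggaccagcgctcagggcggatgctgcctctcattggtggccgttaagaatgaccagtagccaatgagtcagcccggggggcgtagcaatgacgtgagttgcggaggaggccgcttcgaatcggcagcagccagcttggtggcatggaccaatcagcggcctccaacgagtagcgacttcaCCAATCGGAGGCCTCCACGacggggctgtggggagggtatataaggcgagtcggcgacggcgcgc
Hsp90b1 (chr10:86705445-86705694, minus strand): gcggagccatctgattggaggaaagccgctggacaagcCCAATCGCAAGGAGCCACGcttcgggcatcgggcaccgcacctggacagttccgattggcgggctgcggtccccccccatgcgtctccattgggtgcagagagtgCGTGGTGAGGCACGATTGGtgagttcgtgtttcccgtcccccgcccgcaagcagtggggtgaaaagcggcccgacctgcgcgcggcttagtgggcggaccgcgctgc
Herpud1 (chr8:94386179-94386428, plus strand): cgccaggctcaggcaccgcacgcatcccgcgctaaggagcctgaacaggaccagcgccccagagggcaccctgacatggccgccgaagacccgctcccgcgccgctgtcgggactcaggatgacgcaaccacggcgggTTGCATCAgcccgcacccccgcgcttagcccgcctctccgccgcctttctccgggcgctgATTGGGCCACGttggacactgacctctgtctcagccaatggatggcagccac

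Expression was read from the deposited log2 values, with 1 probe set per gene. A gene was tested in a tissue where at least 5 arrays lay above the tissue's 50th percentile. Each treatment was set against vehicle within a tissue with limma, p-values were adjusted by Benjamini-Hochberg over all 10378 to 10847 genes tested there, and a gene was called, and is said to have risen or fallen, at an adjusted p under 0.05. Errors after ± are standard errors of the fitted log2 difference. All 4 treatment comparisons of a tissue share the vehicle arrays. Not tested were Trib3 outside the jejunum, Chac1 outside the jejunum and brain, Phgdh in the jejunum, Vldlr in spleen and blood, and Cebpb in the brain. The labelled tissues carried their markers: the mean of 8 proximal tubule genes was 12.15 in vehicle kidney and at most 6.44 in the other tissues, and the mean of 9 neuronal and glial genes was 11.62 in vehicle brain and at most 4.65 elsewhere. Genes of pancreatic acinar cells stood high on 15 of 47 spleen and 8 of 44 mesenteric node arrays, and the results of these tissues were also computed without them. In bulk tissue, fewer cells of a type and less RNA per cell cannot be told apart.

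Over the 28 comparisons of a treatment with vehicle, 67 of 920 tests of members were called, 7.28%, beside 5.74% of the tests of all genes. Of the calls over all genes 62.5% were rises. In the ATF4 branch 47 of 528 tests were called, 30 as higher (63.8%, close to the split over all genes) and 17 as lower. In the chaperone branch 20 of 392 were called, 5 as higher (25%) and 15 as lower. The calls lay in the kidney (31), jejunum (17), mesenteric node (8), spleen (8), blood (2) and brain (1), and the inguinal node had 0. Those of the jejunum include 2 of Chac1, for which no array of either DMF dose exceeded the filter level. Read against all genes of the same tissue, members were called in 23.5% of kidney tests beside 17.3%, in 12.5% of jejunum tests beside 8.08%, in 6.06% of mesenteric node tests beside 6.8% and in 6.25% of spleen tests beside 6.31%. Of the 35 measured members 30 were called at least once, and Sesn2, Trib3, Calr, Hyou1 and Sdf2l1 never were. Of the 30, 6 were called in both directions, namely Asns, Atf4, Atf5, Slc7a5, Edem1 and Herpud1. The shares of all genes called at least once or in both directions were not computed, so these counts are not set apart from the background. Slc3a2 was called in the largest number of tissues, 4, always as higher.

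**Figure D1:**
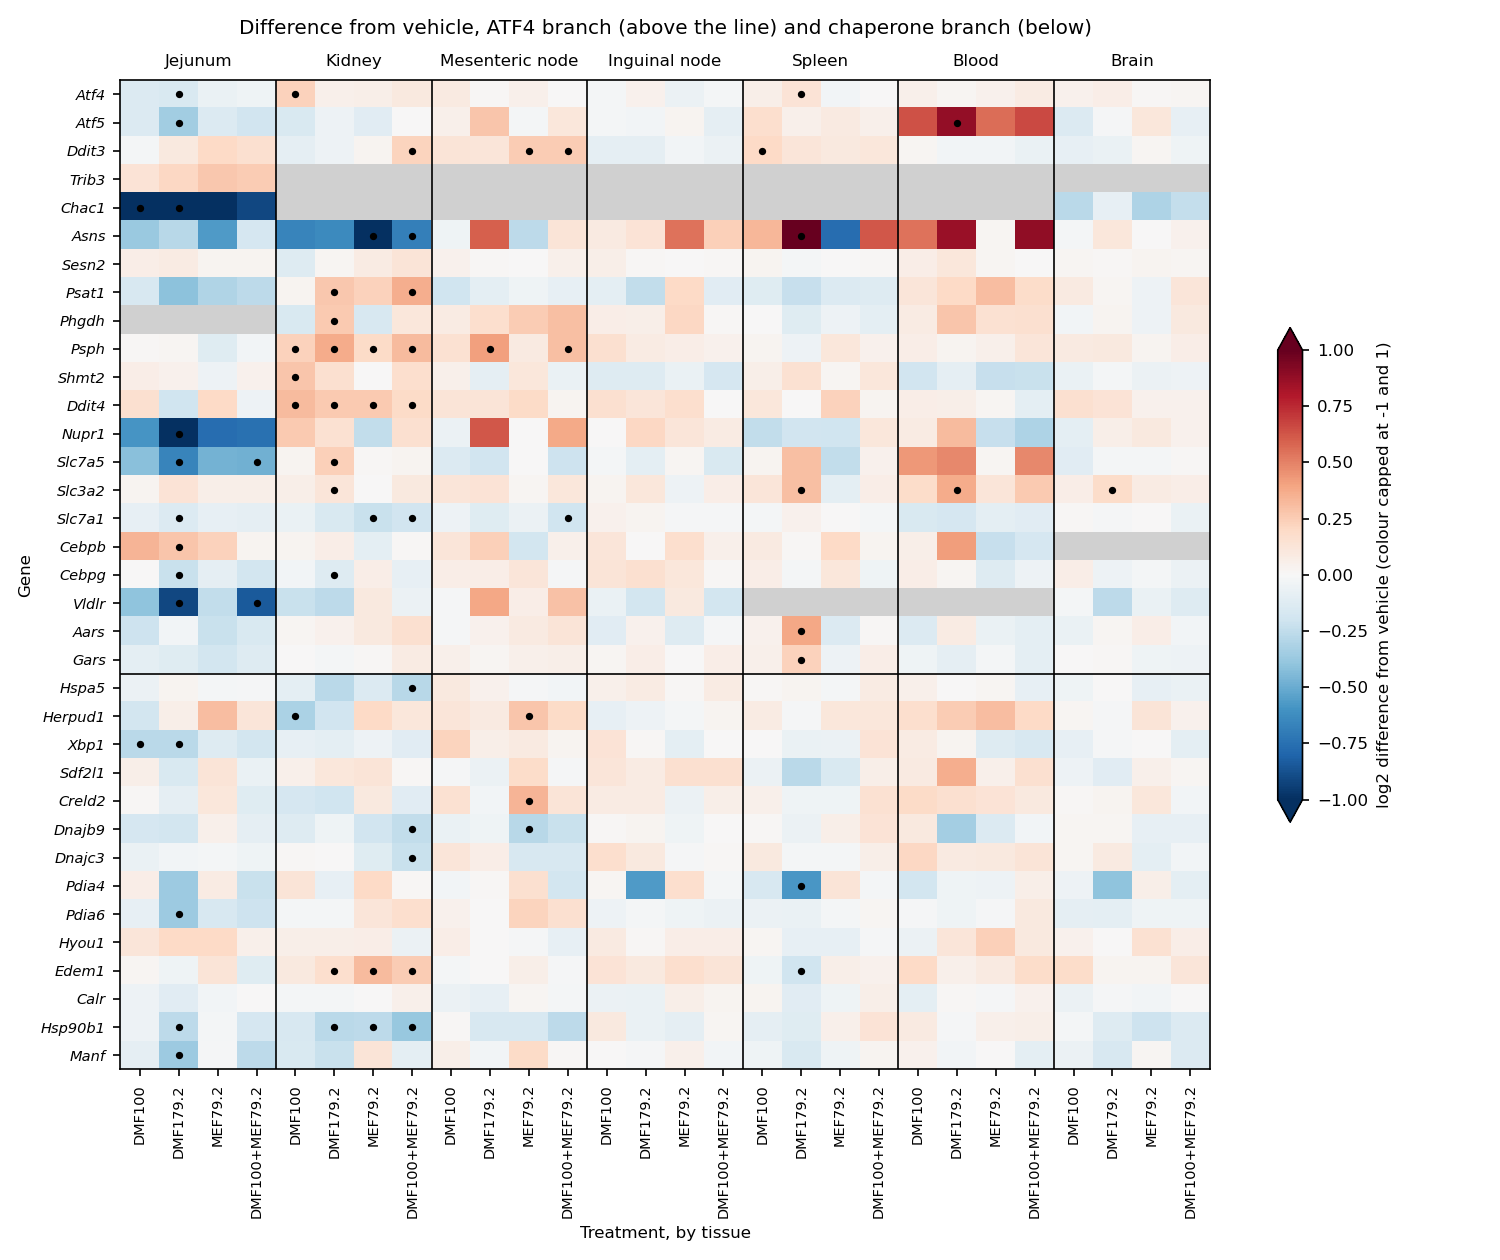
Log2 difference from vehicle for every measured member (rows, the ATF4 branch above the chaperone branch) in each tissue and treatment (columns); red is higher and blue lower than vehicle, the colour is capped at -1 and 1, a dot marks a call and grey a gene not tested. Kidney columns hold 31 of the 67 dots and the inguinal node columns none.

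All member calls of the jejunum were falls except that of Cebpb. Under DMF179.2, 12 of the 34 tested members fell and 1 rose, with a median log2 difference over the members of -0.14 beside 0.02 over all genes. The 12 include Chac1, whose call is no support for this count because no DMF179.2 array exceeded the filter level. The background was 11.8% of genes lower (1281) and 15.6% higher (1688). In the ATF4 branch Nupr1, Slc7a5, Vldlr, Chac1, Atf5, Cebpg, Atf4 and Slc7a1 fell and Cebpb rose, and in the chaperone branch Xbp1, Pdia6, Hsp90b1 and Manf fell. The combination lowered 2 members, Slc7a5 and Vldlr (background 1.62% lower and 2.21% higher), and DMF100 lowered 2, Chac1, which lies in the compressed low range, and Xbp1 (background 0.286% lower and 0.71% higher). MEF79.2 gave 0 member calls with limma, where 0.111% of all genes were called and 3 members were higher and 6 lower at an unadjusted p under 0.05.

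Nupr1 encodes a small stress-induced chromatin protein and is a known ATF4 target. Its log2 level in the 8 vehicle arrays of the jejunum had a lowest value of 11.47, a median of 11.54 and a highest of 12.07, and in the 7 DMF179.2 arrays the values were 9.47, 10.71 and 11.08. Every DMF179.2 array lay below every vehicle array. The difference was -1.29 ± 0.29, 2.44-fold lower (limma adjusted p = 0.0013), and the other treatments gave -0.59 ± 0.3 (DMF100, limma adjusted p = 0.51), -0.76 ± 0.29 (MEF79.2, 0.267) and -0.75 ± 0.28 (combination, 0.11). Slc7a5, the light chain of the LAT1 exchanger for large neutral amino acids, had a vehicle lowest, median and highest of 6.81, 7.18 and 8.02. Under DMF179.2 these were 6.36, 6.64 and 6.92, and under the combination 6.5, 6.8 and 7.08. Of the 7 DMF179.2 arrays, 5 lay below the lowest vehicle array, so the groups overlapped. Slc7a5 was 1.58-fold lower under DMF179.2 (-0.66 ± 0.14, limma adjusted p = 0.000872) and also fell under the combination (-0.48 ± 0.14, 0.0429), with -0.42 ± 0.15 under DMF100 (0.239) and -0.47 ± 0.14 under MEF79.2 (0.181).

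Vldlr encodes a lipoprotein receptor that ATF4 induces in other tissues. Vehicle arrays ran from 5.75 through a median of 6.34 to 6.71, DMF179.2 arrays from 4.35 through 5.53 to 5.75, and combination arrays from 4.26 through 5.48 to 6.25. Of the DMF179.2 arrays 6 of 7, and of the combination arrays 6 of 8, lay under the lowest vehicle array. The falls were -0.91 ± 0.22 under DMF179.2 (1.89-fold, limma adjusted p = 0.00267) and -0.84 ± 0.22 under the combination (1.8-fold, 0.0237), beside -0.4 ± 0.23 under DMF100 (0.602) and -0.25 ± 0.22 under MEF79.2 (0.677). Chac1, a glutathione-degrading enzyme and one of the most responsive ATF4 targets, had vehicle values of 3.67, 5.3 and 6.29. Under DMF100 they were 2.36, 3.28 and 3.34, and under DMF179.2 they were 3.29, 3.34 and 3.94. All 6 DMF100 arrays lay below the vehicle arrays, but no array of either DMF dose exceeded the filter level of 4.89. The gene passed the filter through 5 vehicle, 1 MEF79.2, 2 combination and 3 Nav arrays, so its call is no support for the count of members that fell, and the size of its change is not known in this compressed range. The fitted differences were -2.05 ± 0.44 under DMF100 (limma adjusted p = 0.00799) and -1.59 ± 0.42 under DMF179.2 (0.00505), with -1.28 ± 0.42 under MEF79.2 (0.202) and -0.91 ± 0.41 under the combination (0.178).

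Among the chaperone genes of the jejunum, Xbp1, whose spliced form drives ER expansion, had vehicle values of 10.41, 10.61 and 10.93, DMF100 values of 10.27, 10.4 and 10.44 and DMF179.2 values of 10.11, 10.44 and 10.64. The array does not tell the spliced from the unspliced transcript. Xbp1 was 1.21-fold lower under both doses of DMF (-0.27 ± 0.07 each, limma adjusted p = 0.0343 for DMF100 and 0.00242 for DMF179.2), with -0.13 ± 0.07 under MEF79.2 (0.41) and -0.18 ± 0.06 under the combination (0.0931). Pdia6, a protein disulfide isomerase, ran from 8.83 through 9.18 to 9.7 in vehicle and from 8.6 through 8.82 to 9.08 under DMF179.2. It fell by 0.36 ± 0.12 (limma adjusted p = 0.0178), and 4 of 7 arrays lay below the vehicle range. For DMF100, MEF79.2 and the combination the Pdia6 differences were -0.08 ± 0.12, -0.16 ± 0.12 and -0.21 ± 0.11, with adjusted p of 0.904, 0.58 and 0.268. Hsp90b1 (GRP94), the ER member of the HSP90 family, ran from 11.32 through 11.52 to 11.93 in vehicle and from 10.9 through 11.3 to 11.58 under DMF179.2, and fell by 0.26 ± 0.09 (limma adjusted p = 0.0279). Its other differences were -0.05 ± 0.09, -0.02 ± 0.09 and -0.17 ± 0.09, with adjusted p of 0.942, 0.939 and 0.249. Another Hsp90b1 probe set differed by -0.81 under DMF179.2 and was called. Manf, a secreted ER protein, fell by 0.36 ± 0.12 (0.0291). Hspa5 (BiP), the central ER chaperone, was not called: its differences were -0.01 ± 0.08 (combination), -0.02 ± 0.08 (MEF79.2), 0.03 ± 0.08 (DMF179.2) and -0.06 ± 0.08 (DMF100), and the 95% interval for DMF179.2 ran from -0.13 to 0.19.

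Atf4 itself fell by 0.15 ± 0.05 under DMF179.2 (limma adjusted p = 0.0278), from a vehicle median of 11.91 to 11.73, and overlapped widely between the groups. Atf5, a close relative of Atf4, fell by 0.35 ± 0.11 (0.0191), Cebpg, a C/EBP partner of ATF4, by 0.22 ± 0.06 (0.00664), and Slc7a1, a carrier of cationic amino acids, by 0.14 ± 0.05 (0.0444). Another Slc7a1 probe set differed by -0.45 and was called. Cebpb was the member that rose, by 0.28 ± 0.11 (limma adjusted p = 0.0433), though another Cebpb probe set differed in the opposite direction. Ddit3 (CHOP), a pro-apoptotic partner of C/EBP proteins, gave 0.1 ± 0.09 under DMF179.2 and was not called with any treatment. Between the doses, Ddit4 (-0.36 ± 0.11, limma adjusted p = 0.0313) and Cebpg (-0.22 ± 0.06, 0.0228) were lower under DMF179.2 than under DMF100, where 11.6% of genes differed. MEF79.2 and DMF100, given at unequal doses, differed in Herpud1 (0.49 ± 0.11 higher under MEF79.2, limma adjusted p = 0.0367; 0.138% of genes differed).

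**Figure D2:**
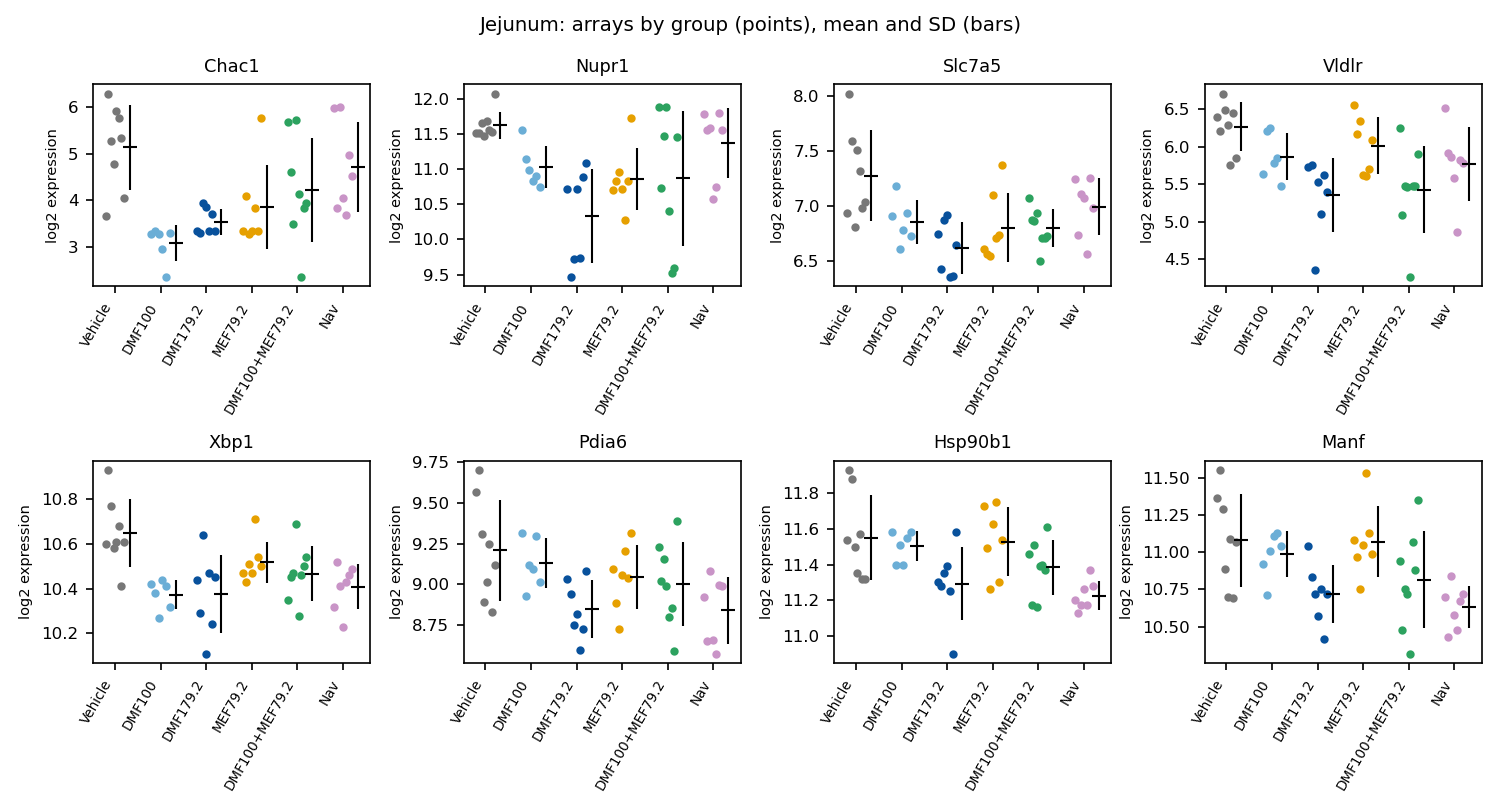
Log2 level of 8 members in the jejunum by group. Each point is 1 array, the dash is the group mean and the bar the SD. All 7 DMF179.2 arrays of Nupr1 lie below the lowest vehicle array at 11.47, whereas the points of Hsp90b1 and Xbp1 overlap between vehicle and DMF179.2.

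Other genes of the pathway were called in both directions in the jejunum. Over all genes, 15.6% were higher and 11.8% lower under DMF179.2. Of the 28 ER folding and degradation genes 8 lay above vehicle there, with a median of -0.058 beside 0.017 over all genes. The medians of the further ATF4 targets and the tRNA synthetases were 0.076 and -0.024. Under DMF179.2, 2 of 9 further ATF4 targets rose and none fell, 0 of 14 tRNA synthetases rose and 2 fell (Wars by 0.46 ± 0.12, limma adjusted p = 0.00341, and Kars by 0.24 ± 0.08), and of 28 ER folding and degradation genes 5 rose and 3 fell. Ero1a, the oxidase that recharges disulfide isomerases, rose by 0.33 ± 0.06 (limma adjusted p = 8.39e-05), while Dnajc10, an ER reductase, fell by 0.34 ± 0.09. Cth, the cystathionine lyase that makes cysteine, rose by 0.51 ± 0.09 under DMF100, by 0.62 ± 0.08 under DMF179.2 and by 0.48 ± 0.08 under the combination (limma adjusted p = 0.000403, 1.53e-06 and 0.00019). Of 13 sensors and regulators, Eif2ak1, the heme-regulated eIF2 alpha kinase, rose by 0.36 ± 0.09 (0.00383) and Ern2, the intestinal IRE1 form, fell by 0.38 ± 0.13 (0.0244) under DMF179.2. Atf3, a stress-induced factor downstream of ATF4, rose by 1.54 ± 0.27 under DMF100 (limma adjusted p = 0.000451).

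Markers of secretory epithelium moved with Nupr1 and Pdia6 and against Cebpb. Of 11 Paneth and goblet markers, Clca1 and Mmp7 fell under DMF179.2 and none rose, and the mean of all 11 ranged from 11.28 to 11.56 in vehicle and from 11.04 to 11.46 under DMF179.2. Across the 43 jejunum arrays, as deviations from group means, Nupr1 followed that mean with r = 0.86 and rho = 0.872 (permutation within groups, two-sided, adjusted p = 5e-05 and 6.67e-05 over 20 relations; r = 0.83 without the 2 farthest arrays), and Pdia6 with r = 0.616 and rho = 0.608 (adjusted p = 5e-05 and 2e-04; r = 0.561). Cebpb ran against it with r = -0.455 and rho = -0.561 (adjusted p = 0.015 and 0.00092; r = -0.488). Slc7a5 gave r = 0.291 and rho = 0.36 (permutation adjusted p = 0.0725 and 0.04), and r = 0.348 without the 2 farthest arrays. For Xbp1, Hsp90b1 and Manf r was 0.0468, 0.0656 and 0.0702 (permutation adjusted p of at least 0.766). With the marker mean as a covariate 7 members were called under DMF179.2 and all of them fell. They were Atf5, Cebpg, Nupr1 (-0.67 ± 0.16, limma adjusted p = 0.00309), Slc7a5, Vldlr, Xbp1 and Chac1, whose call is no support for this count. Pdia6 was then -0.19 (0.168), Cebpb 0.16 (0.247), Hsp90b1 -0.24 (0.0589) and Atf4 -0.13 (0.0831), and under the combination Slc7a5 was -0.42 (0.0652). The enterocyte mean ranged from 12.76 to 13.27 in vehicle and from 12.17 to 13.35 under DMF179.2, and its part in the result was not tested. B-cell markers stood higher, without a call, where 2 members each were called: the median difference of 7 markers was 1.515 under DMF100 and 1.747 under the combination, with 5 and 6 of them at an unadjusted p under 0.05, beside 0.225 under DMF179.2. Their mean ranged from 3.85 to 6.63 in vehicle, from 4.28 to 7.39 under DMF100 and from 4.2 to 7.62 under the combination, the plasma-cell factor Prdm1 fell under the combination, and the part of these cells was not tested. The hybridisation controls, RNAs spiked in at the array step, averaged 11.77 ± 0.03 (SD, n = 8) in vehicle and 11.57 to 11.69 in the other groups. With their level as a covariate, Nupr1 (-1.74) and Cebpb (0.59) were the 2 members called under DMF179.2 and neither Slc7a5 nor Vldlr was called under the combination. Under DMF100 neither Chac1 (-2.03, limma adjusted p = 0.113) nor Xbp1 (-0.24, 0.286) was called in that fit. Centring each array on its median ended the calls of Xbp1 under DMF100, of Atf4, Hsp90b1, Manf and Slc7a1 under DMF179.2 and of Slc7a5 under the combination, and the DMF179.2 difference of Atf4 ranged from -0.15 to -0.01 over the alternative settings.

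In the kidney members moved in both directions. Psph, the phosphatase of the last step of serine synthesis, and Ddit4 (REDD1), a stress-induced inhibitor of mTORC1, rose under all 4 treatments, and Asns, asparagine synthetase, fell under MEF79.2 and the combination. Of 33 tested members, 4 rose and 1 fell under DMF100 (background 4.51% higher, 3.58% lower), 7 rose and 2 fell under DMF179.2 (10.6% and 6.09%), 3 rose and 3 fell under MEF79.2 (8.75% and 5.45%), and 5 rose and 6 fell under the combination (17.7% and 12.6%). Under the combination the median was 0.10 over the ATF4 branch and -0.08 over the chaperone branch.

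Psph had vehicle values of 8.51, 8.72 and 8.81 (lowest, median and highest of 7 arrays). Under DMF100 these were 8.86, 8.93 and 9.02, under DMF179.2 8.8, 9.08 and 9.41, under MEF79.2 8.69, 8.91 and 9.06, and under the combination 8.87, 9 and 9.31. Every DMF100 and combination array lay above every vehicle array, as did 7 of 8 DMF179.2 and 6 of 7 MEF79.2 arrays. The rises were 0.23 ± 0.06, 0.37 ± 0.06 (1.29-fold), 0.19 ± 0.06 and 0.32 ± 0.06, with limma adjusted p of 0.0121, 2.57e-05, 0.0407 and 0.000189. Psat1, the aminotransferase of the step before, ran from 10.85 through 11.23 to 11.49 in vehicle, from 10.96 through 11.54 to 11.73 under DMF179.2 and from 11.39 through 11.53 to 11.77 under the combination. It rose by 0.27 ± 0.09 under DMF179.2 (limma adjusted p = 0.0362) and by 0.36 ± 0.09 under the combination (0.00264), and was 0.03 ± 0.09 under DMF100 (0.891) and 0.23 ± 0.09 under MEF79.2 (0.0997). Phgdh, which opens the pathway, rose by 0.26 ± 0.09 under DMF179.2 alone (0.0414). The calls of Psat1 and Phgdh under DMF179.2 were each lost in 3 of 8 alternative fits. Shmt2, which turns serine into glycine in mitochondria, ran from 8.73 to 8.93 in vehicle and from 8.91 to 9.22 under DMF100, and rose by 0.28 ± 0.07 there (limma adjusted p = 0.00505).

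Ddit4 ran from 10.55 through 10.77 to 10.89 in vehicle. The lowest, median and highest values were 10.89, 11.1 and 11.19 under DMF100, 10.86, 11.06 and 11.11 under DMF179.2, 10.85, 11 and 11.24 under MEF79.2, and 10.88, 10.91 and 11.17 under the combination. Most arrays of each treatment lay above the vehicle range, from 6 of 8 in the combination to 7 of 8 in both DMF groups. Its rises were 0.32 ± 0.06, 0.26 ± 0.06, 0.26 ± 0.06 and 0.19 ± 0.06 (limma adjusted p = 0.000586, 0.00228, 0.00567 and 0.0188). Asns went the other way, from 7.42, 8.31 and 8.4 in vehicle to 6.66, 6.99 and 7.39 under MEF79.2, with no overlap, and to 6.39, 7.63 and 8.02 under the combination, where 3 of 8 arrays lay below the vehicle range. It was 2.1-fold lower under MEF79.2 (-1.07 ± 0.24, limma adjusted p = 0.00252) and 1.6-fold lower under the combination (-0.68 ± 0.23, 0.0253). Under DMF100 and DMF179.2 its differences of -0.66 ± 0.23 and -0.64 ± 0.23 missed the threshold (0.0725 and 0.0531). Atf4 rose by 0.23 ± 0.05 under DMF100 (limma adjusted p = 0.00406), from a vehicle median of 10.53 to 10.77 with 6 of 8 arrays above the vehicle range, and gave 0.05, 0.06 and 0.1 under the other treatments (0.592, 0.451 and 0.144). Ddit3 rose under the combination (0.22 ± 0.08, 0.034). Slc7a5 and Slc3a2, the 2 chains of the LAT1 exchanger, rose under DMF179.2 by 0.24 ± 0.08 (0.0245) and 0.12 ± 0.04 (0.0294), and Cebpg fell there by 0.13 ± 0.04 (0.0343). Slc7a1 fell under MEF79.2 (-0.22 ± 0.06, 0.0146) and the combination (-0.19 ± 0.06, 0.0131).

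Of the 14 chaperone members, 5 fell in at least 1 treatment of the kidney (Herpud1, Hsp90b1, Hspa5, Dnajb9 and Dnajc3), Edem1 rose, and 8 were not called. The branch's median was 0.09 for MEF79.2, with 9 of 14 members above vehicle, and -0.08 for the combination, -0.05 for DMF100 and -0.06 for DMF179.2. Edem1, a lectin-like protein that sends misfolded glycoproteins to degradation, had vehicle values of 8.94, 9.08 and 9.32, MEF79.2 values of 9.3, 9.35 and 9.57 and combination values of 9.2, 9.3 and 9.47. It rose by 0.32 ± 0.06 under MEF79.2, by 0.25 ± 0.06 under the combination and by 0.17 ± 0.06 under DMF179.2 (limma adjusted p = 0.000217, 0.000778 and 0.0311), and was 0.1 ± 0.06 under DMF100 (0.275). The other tested Edem1 probe set gave smaller differences in these groups, 0.01, 0.13 and 0.11 in the same order, and was not called. Hsp90b1 ran from 10.59 through 11.03 to 11.19 in vehicle, from 10.42 through 10.66 to 10.83 under DMF179.2, from 10.5 through 10.67 to 10.78 under MEF79.2 and from 10.37 through 10.5 to 10.71 under the combination. It fell by 0.27 ± 0.08, 0.26 ± 0.09 and 0.38 ± 0.08 (limma adjusted p = 0.0201, 0.0371 and 0.000684), and was -0.16 ± 0.08 under DMF100 (0.236). Another Hsp90b1 probe set gave -0.41 under DMF179.2, -0.33 under the combination and, without a call, -0.09 under MEF79.2. Hspa5 ran from 11.47 through 11.78 to 12.17 in vehicle and from 11.21 through 11.51 to 11.68 under the combination, and fell there by 0.28 ± 0.1 (limma adjusted p = 0.0291). Only 2 of those 8 arrays lay outside the vehicle range, and the differences under DMF100, DMF179.2 and MEF79.2 were -0.1 ± 0.1, -0.27 ± 0.1 and -0.14 ± 0.1 (0.595, 0.061 and 0.363). Dnajb9 (-0.25 ± 0.09, 0.0295) and Dnajc3 (-0.22 ± 0.09, 0.0485), co-chaperones of BiP, fell under the combination, but 3 of the 4 other Dnajc3 probe sets had the opposite sign and the call held in 2 of 8 alternative fits. Herpud1, a membrane component of ER degradation, fell under DMF100 (-0.32 ± 0.11, 0.047). Without 2 Nav arrays that held acinar transcripts and share in the estimate of spread, Herpud1 (limma adjusted p = 0.0509) and Dnajc3 (0.0553) were not called. Newly called against vehicle in that fit were Asns, lower under DMF179.2, and Shmt2, higher under the combination. Xbp1 was not called in the kidney, with differences from -0.11 to -0.05.

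**Figure D3:**
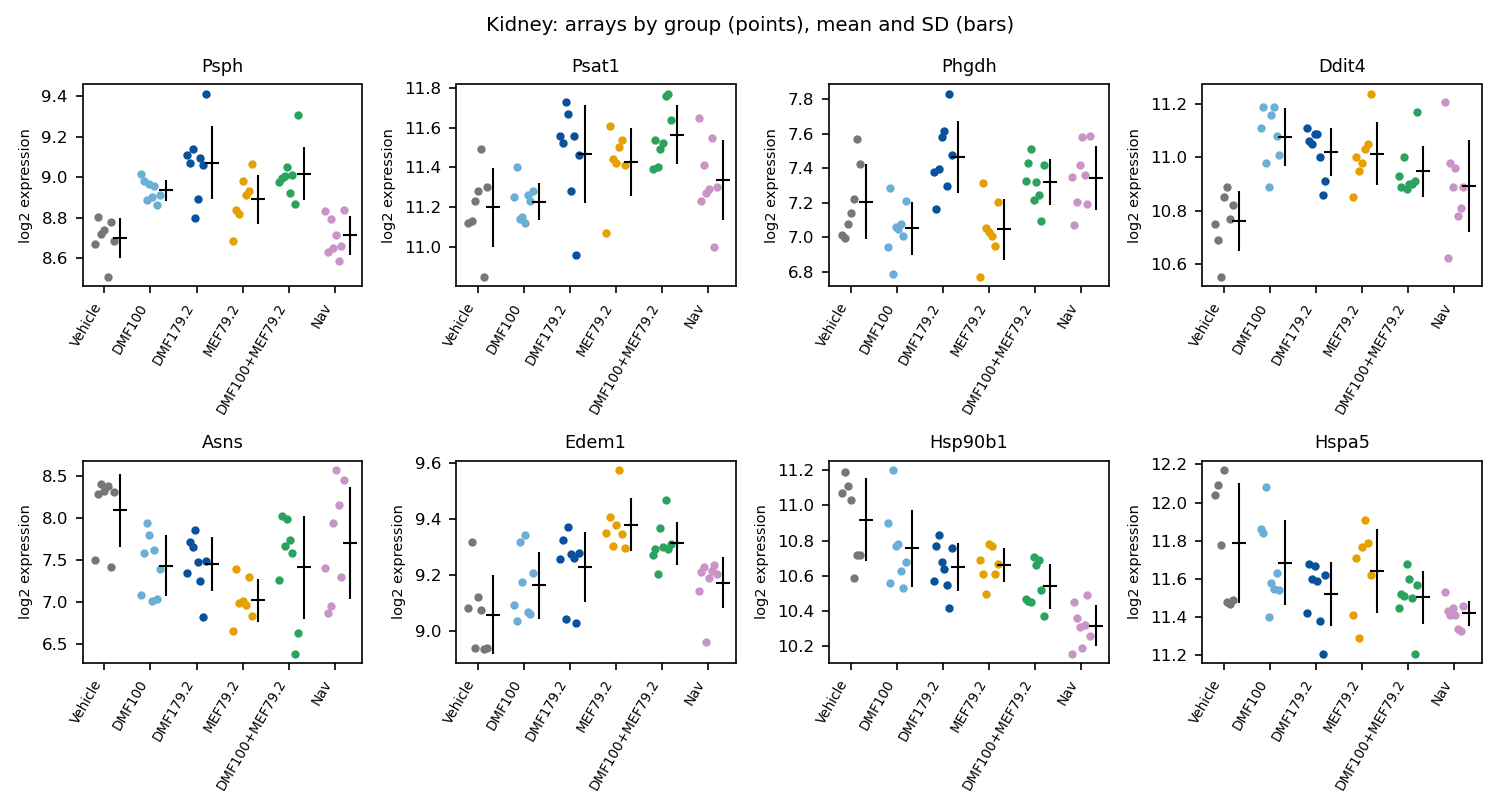
Log2 level of 8 members in the kidney by group. Each point is 1 array, the dash is the group mean and the bar the SD. Psph arrays of DMF100 and the combination all lie above the highest vehicle array at 8.81, Asns arrays of MEF79.2 all lie below the lowest vehicle array at 7.42, and Hsp90b1 is lowest in Nav.

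Compared directly, the treated kidneys differed from each other in a few members. The combination was above DMF100 in 5 members: Ddit3 (0.31 ± 0.08, limma adjusted p = 0.00597), Sesn2 (0.25 ± 0.06, 0.00732), Psat1 (0.34 ± 0.09, 0.00985), Phgdh (0.27 ± 0.09, 0.0354) and Herpud1 (0.43 ± 0.1, 0.00474), where 14.6% of genes differed. DMF179.2 was above DMF100 in Phgdh (0.41 ± 0.09, 0.0152; 1.36% of genes differed). At equal summed mass, DMF179.2 was below the combination in Ddit3 (-0.27 ± 0.08, limma adjusted p = 0.0212; 11.4% of genes differed). MEF79.2 and DMF100, esters given at unequal doses, differed in Shmt2 (-0.28 ± 0.07, limma adjusted p = 0.0194, lower under MEF79.2), Herpud1 (0.52 ± 0.11, 0.008) and Edem1 (0.22 ± 0.06, 0.0305), with 2.4% of genes differing.

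Of the other pathway genes in the kidney, Cbs, the enzyme that joins serine and homocysteine, rose under all 4 treatments, by 0.32 to 0.52 (limma adjusted p from 0.000156 down to 2.78e-09). Slc6a9, a glycine carrier, rose under DMF179.2 (0.32 ± 0.08, 0.00666), MEF79.2 (0.26 ± 0.09, 0.0355) and the combination (0.46 ± 0.08, 7.68e-05). Aldh1l2, of mitochondrial folate metabolism, fell under all 4, by 0.3 to 0.41. Among 13 tRNA synthetases, 6 rose and 1 fell under the combination, 4 rose and 1 fell under MEF79.2, 1 rose under DMF179.2 and 2 rose under DMF100. Of 11 sensors and regulators 5 fell and 1 rose under the combination, with Mbtps2, the protease that releases ATF6, down by 0.33 ± 0.08 (0.0011) and the eIF2 alpha kinase Eif2ak2 down by 0.59 ± 0.14 (0.0019). Mbtps1, the companion protease, fell under all 4 treatments, most under DMF100 (-0.28 ± 0.05, limma adjusted p = 8.74e-05). Of 27 ER folding and degradation genes 5 rose and 1 fell under the combination. Among the kidney's member calls, those that held in every alternative fit were Psph (both DMF doses and the combination), Ddit4 (both DMF doses and MEF79.2), Edem1 (MEF79.2 and the combination), Atf4 and Shmt2 (DMF100), Slc7a5 (DMF179.2), Asns (MEF79.2), and Hsp90b1 and Psat1 (the combination). Each of the others missed the threshold in at least 1 of them.

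In the mesenteric node Psph rose again, under DMF179.2 and the combination, and Ddit3 rose under MEF79.2 and the combination. Of 33 tested members 1 rose under DMF179.2 (background 6.15% higher, 1.73% lower), 3 rose and 1 fell under MEF79.2 (1.49% and 3.26%), and 2 rose and 1 fell under the combination (9.16% and 3.57%). DMF100 gave 0 calls among members with limma, where 1.85% of genes were called and 2 members were higher and 1 lower at an unadjusted p under 0.05. Psph ran from 7.9 through 8.15 to 8.31 in vehicle, from 8.27 through 8.42 to 9.02 under DMF179.2 and from 8.31 through 8.42 to 8.59 under the combination. It rose by 0.41 ± 0.08 (limma adjusted p = 0.0029) and 0.3 ± 0.09 (0.0277), and was 0.15 ± 0.08 under DMF100 (0.403) and 0.09 under MEF79.2 (0.601). Ddit3 ran from 8.59 through 8.76 to 8.86 in vehicle, from 8.82 through 8.93 to 9.19 under MEF79.2 and from 8.83 through 9 to 9.06 under the combination. Most arrays of both groups (5 of 7 and 5 of 6) lay above the vehicle range. It rose by 0.25 ± 0.07 in each (limma adjusted p = 0.0279 and 0.0186), with 0.13 under DMF100 (0.354) and 0.12 under DMF179.2 (0.242). Slc7a1 fell under the combination, from 11.38, 11.41 and 11.49 to 11.11, 11.24 and 11.29 without overlap (-0.2 ± 0.05, limma adjusted p = 0.0109).

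The chaperone calls of the mesenteric node were all under MEF79.2. Herpud1 moved from 10.39, 10.59 and 10.92 in vehicle to 10.71, 10.91 and 11 (0.28 ± 0.07, limma adjusted p = 0.0169). Creld2, a secreted ER stress protein, moved from 8.96, 9.17 and 9.7 to 9.27, 9.69 and 9.92 (0.34 ± 0.1, 0.0401), and Dnajb9 from 9.4, 9.66 and 10.04 to 9.21, 9.39 and 9.6 (-0.28 ± 0.08, 0.0353). All 3 overlapped the vehicle arrays. Dnajc3 was lower in the combination and in MEF79.2 than in DMF100, by -0.28 ± 0.08 in both comparisons (limma adjusted p = 0.0271 and 0.0153; 8.81% and 13.5% of genes differed), as was Slc7a1 in the combination (-0.15 ± 0.05, 0.0478). Among the node's other pathway genes, Stc2, a secreted glycoprotein induced by ATF4, rose under DMF100 (0.61 ± 0.13, limma adjusted p = 0.00576), DMF179.2 (0.56 ± 0.13, 0.00622) and the combination (0.45 ± 0.14, 0.0291). Sil1, the nucleotide exchange factor of BiP, rose under DMF179.2 (0.28 ± 0.06, 0.00781) and the combination (0.33 ± 0.07, 0.00323). Atf4, Xbp1 and Hspa5 were not called in this node; their largest differences were 0.09, 0.22 and 0.1, all under DMF100.

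Among the 44 mesenteric node arrays, 8 held pancreatic acinar transcripts, with a marker mean of 5.24 to 12.89 against a median of 2.92 over all arrays and at most 3.07 on the other arrays. They belonged to vehicle (1), DMF179.2 (1), MEF79.2 (1), the combination (2) and Nav (3). Acinar cells are rich in ER chaperones. Without these arrays Psph under DMF179.2 (0.34 ± 0.09, limma adjusted p = 0.0275) was the 1 member call that held. Adjusted p was then 0.147 for Psph under the combination, 0.149 and 0.0914 for Ddit3 under MEF79.2 and the combination, 0.063 for Slc7a1, 0.071 for Herpud1, 0.138 for Dnajb9 and 0.187 for Creld2. Between treated groups it was 0.142 and 0.0572 for Dnajc3 in the combination and MEF79.2 against DMF100, and 0.191 for Slc7a1. The B-cell markers Spib, Cr2 and Cd22 fell under DMF179.2 in this node, and their part in the Psph result was not tested.

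In the spleen the share of members called under DMF179.2 was near that of all genes. Of 32 tested members 5 rose (Slc3a2, Gars, Asns, Aars and Atf4; background 16.9% higher) and 2 fell (Pdia4 and Edem1; background 7.54% lower). The median difference was 0.046 over the ATF4 branch, -0.076 over the chaperone branch and 0.045 over all genes. Asns, which makes asparagine, ran from 7.24 through 7.95 to 9.42 in vehicle and from 9.19 through 9.72 to 10.31 under DMF179.2. It rose 2.98-fold (1.58 ± 0.43, limma adjusted p = 0.00834), with 5 of 8 arrays above the vehicle range. The other treatments gave 0.33 (DMF100, 0.816), -0.76 ± 0.44 (MEF79.2, 0.9) and 0.62 ± 0.43 (combination, 0.755). Slc3a2, the 4F2 heavy chain that carries several amino acid exchangers to the membrane, ran from 10.32 through 10.57 to 10.83 in vehicle and from 10.78 through 10.86 to 11 under DMF179.2, a rise of 0.3 ± 0.07 (limma adjusted p = 0.00398). Gars, the glycyl-tRNA synthetase, moved from 10.09, 10.16 and 10.33 to 10.25, 10.4 and 10.59 (0.23 ± 0.06, 0.00745), with 6 of 8 arrays above the vehicle range. Aars, the alanyl-tRNA synthetase, rose by 0.39 ± 0.11 (0.0089) and Atf4 by 0.14 ± 0.04 (0.0152). Another Aars probe set gave 0.14 and was not called. Pdia4, a disulfide isomerase, moved from 7.64, 8.28 and 8.44 to 7.43, 7.63 and 7.78 (-0.58 ± 0.14, 1.49-fold lower, limma adjusted p = 0.00366). Edem1, the lectin that rose in the kidney, fell here by 0.2 ± 0.07 (0.0381). The groups overlapped for both genes. Atf4 was not called when all probe sets of a gene were averaged (highest limma adjusted p over the alternatives 0.0989), nor was Edem1 (0.168).

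DMF100 raised Ddit3 in the spleen (0.2 ± 0.05, limma adjusted p = 0.0351; background 0.502% higher, 0.332% lower). MEF79.2 and the combination gave 0 member calls with limma, with 1 member higher in each at an unadjusted p under 0.05 and 0% and 0.0284% of all genes called. The higher DMF dose also differed from the combination of the same summed mass, where 5.64% of genes differed. Atf4 (0.13 ± 0.04, limma adjusted p = 0.0455), Slc3a2 (0.23 ± 0.07, 0.0473) and Aars (0.38 ± 0.11, 0.0337) were higher under DMF179.2, and Pdia4 (-0.55 ± 0.14, 0.0206), Edem1 (-0.24 ± 0.07, 0.0432) and Hsp90b1 (-0.26 ± 0.08, 0.0383) were lower. With arrays centred on their median Edem1 and Hsp90b1 missed the threshold, and in a fit of these 2 groups alone Edem1 and Atf4 did. In the same comparison the median difference was -2.961 over 9 acinar and 1.509 over 10 erythroid markers. Without the acinar-rich arrays Hsp90b1 (-0.25 ± 0.1, limma adjusted p = 0.0804) and Slc3a2 (0.28 ± 0.1, 0.052) were not called and Atf4, Aars, Pdia4 and Edem1 were, and with the erythroid mean as a covariate none of the 6 was called (0.121 to 0.218). Under DMF179.2, 4 of 9 further ATF4 targets rose and none fell (Slc38a2 by 0.28 ± 0.07, Mthfd1l by 0.26 ± 0.07, Pck2 by 0.46 ± 0.13 and Slc6a9 by 1.29 ± 0.42), as did 5 of 14 tRNA synthetases with none falling, while 5 of 27 ER folding and degradation genes fell and 2 rose. The kinases Eif2ak1, regulated by heme (0.55 ± 0.15, limma adjusted p = 0.0103), and Eif2ak4, regulated by uncharged tRNA (0.25 ± 0.07, 0.0139), rose, and Eif2ak2 fell (-0.55 ± 0.15, 0.00975). Over all genes 16.9% were higher and 7.54% lower under DMF179.2. These pathway genes were not examined with the erythroid covariate. Hspa5 and Xbp1 were not called in the spleen (0.03 ± 0.06 and -0.07 ± 0.1 under DMF179.2).

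Erythroid genes moved with the spleen result. Of 10 tested erythroid markers 8 rose under DMF179.2, among them Klf1 (2.28 ± 0.66, limma adjusted p = 0.012) and Tfr2 (2.41 ± 0.61, 0.00563). Their mean ranged from 5.81 to 10.04 in vehicle, 6.32 to 10.46 under DMF100, 9.31 to 10.68 under DMF179.2, 6.18 to 8.13 under MEF79.2 and 6.39 to 9.48 under the combination. Across the 47 spleen arrays, as deviations from group means, Asns followed this mean with r = 0.905 and rho = 0.886 (permutation within groups, two-sided, adjusted p = 5e-05 and 6.67e-05 over 20 relations), and r was 0.895 without the 2 farthest arrays. Aars gave r = 0.713 and rho = 0.693 (adjusted p = 5e-05 and 6.67e-05; 0.699 without the 2 arrays) and Slc3a2 r = 0.434 and rho = 0.459 (0.023 and 0.0116; 0.4 without them). Pdia4 ran against it (r = -0.404, rho = -0.409, 0.0204 and 0.0173; -0.424 without them). With the erythroid mean as a covariate 0 of the 7 members were called with limma under DMF179.2. Asns was then 0.4 ± 0.2 (adjusted p = 0.182), Aars 0.16 ± 0.08 (0.198), Slc3a2 0.2 ± 0.07 (0.0594), Gars 0.16 (0.0895), Atf4 0.1 (0.134), Pdia4 -0.41 ± 0.14 (0.0534) and Edem1 -0.12 (0.296). Also lower under DMF179.2 were the B-cell markers Cr2, Spib and Cd79b and the plasma-cell markers Tnfrsf13b and Irf4, whose part was not tested. Acinar markers stood high on 15 of the 47 arrays (6.65 to 12.15, median of all 3.44). Without these arrays all 7 members and Psat1 and Sdf2l1 were called under DMF179.2, and Ddit3 under DMF100 was not (0.24, limma adjusted p = 0.0679).

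**Figure D4:**
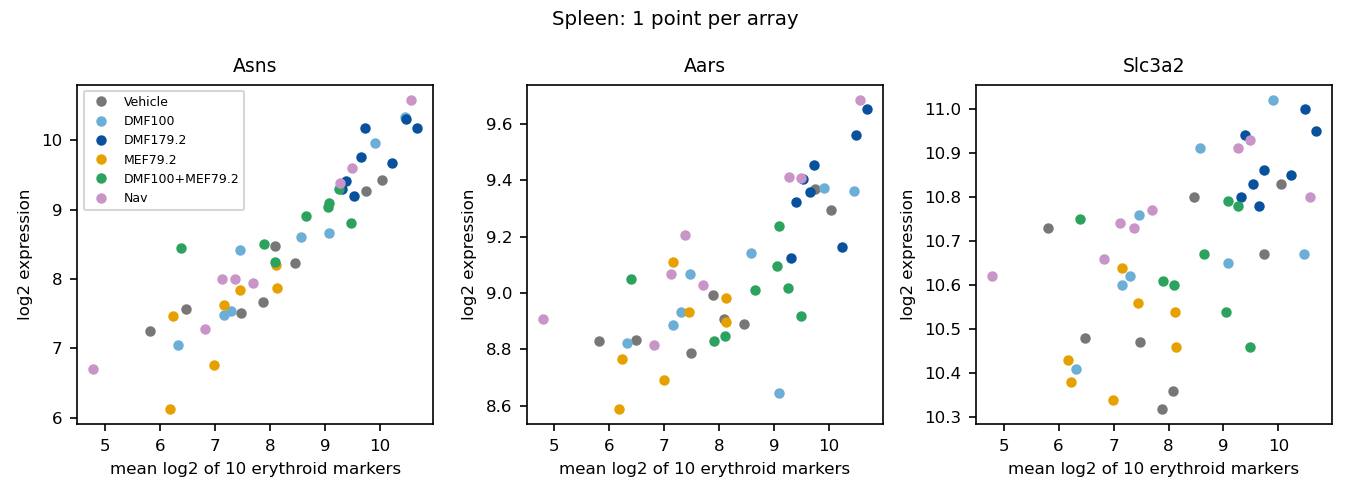
Log2 level of Asns, Aars and Slc3a2 in the spleen (vertical axis) against the mean log2 level of 10 erythroid markers (horizontal axis), 1 point per array and 1 colour per group. Arrays of DMF179.2 lie at marker means of 9.31 or more, and Asns rises along the axis with the marker mean (r = 0.905 for deviations from group means).

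Blood and brain gave few calls, and Slc3a2 was among them in both. In blood, 2 of 32 tested members rose under DMF179.2, Slc3a2 and Atf5 (background 0.886% higher, 0.453% lower). Slc3a2 ran from 9.15 through 9.35 to 9.54 in vehicle and from 9.44 through 9.73 to 9.93 under DMF179.2 (0.37 ± 0.09, limma adjusted p = 0.0241), with 0.18 under DMF100 (0.492), 0.12 under MEF79.2 (0.7) and 0.26 under the combination (0.557). Atf5 moved from 5.18, 5.37 and 6.08 to 5.77, 6.43 and 6.84, a 1.85-fold rise (0.88 ± 0.23, limma adjusted p = 0.0421). Its differences under DMF100, MEF79.2 and the combination were 0.64 ± 0.24 (0.297), 0.56 ± 0.26 (0.427) and 0.66 ± 0.25 (0.58). The Atf5 call under DMF179.2 was lost with no expression filter, after renewed quantile normalisation and with the hybridisation control covariate. In blood these controls had an SD of 0.65 under DMF179.2 and 0.17 in vehicle. In brain, 1 of 33 tested members was called under DMF179.2 (background 1.01% higher, 0.0743% lower): Slc3a2 ran from 10.1 through 10.19 to 10.3 in vehicle and from 10.34 through 10.37 to 10.45 under DMF179.2, with no overlap (0.18 ± 0.04, 1.13-fold, limma adjusted p = 0.0278). Atf5 was higher under MEF79.2 than under DMF100 in brain (0.25 ± 0.07, 0.0291; 3.53% of genes differed).

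The remaining comparisons gave 0 member calls with limma. In blood these were DMF100 (0.26% of genes called), MEF79.2 (0%) and the combination (0%), and at an unadjusted p under 0.05 they had 3 members higher and 0 lower, 3 higher and 1 lower, and 4 higher and 1 lower. In brain they were DMF100 (0.4%), MEF79.2 (0.362%) and the combination (0.297%), with 2 higher and 3 lower, 2 higher and 2 lower, and 2 higher and 3 lower at that p. In the inguinal node they were the combination (0.0474%), MEF79.2 (0.00947%), DMF179.2 (0.379%) and DMF100 (1.69%), with 1 higher and 2 lower, 5 higher and 0 lower, 1 higher and 2 lower, and 6 higher and 0 lower. Atf4, Ddit3, Xbp1 and Hspa5 lay between -0.16 and 0.14 in all of these 3 tissues under all 4 treatments.

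Under DMF179.2 Slc3a2 was above vehicle in 7 of 7 tissues and called in 4: kidney, spleen, blood and brain. The differences that missed the threshold were 0.14 ± 0.07 in jejunum (limma adjusted p = 0.119), 0.14 ± 0.07 in mesenteric node (0.184) and 0.11 ± 0.07 in inguinal node (0.572). Under MEF79.2 its differences ran from -0.1 in spleen to 0.12 in blood. The gene was singled out for its number of calls, and the share of all genes above vehicle in every tissue was not computed. Slc7a5, the light-chain partner of Slc3a2, differed in sign among tissues under DMF179.2. It stood at -0.66 in jejunum, -0.19 in mesenteric node, -0.1 in inguinal node and -0.02 in brain. In kidney, spleen and blood it was higher, as Slc3a2 was, at 0.24, 0.3 and 0.48. The Slc3a2 calls of kidney, blood and brain each missed the threshold in at least 1 alternative fit (highest limma adjusted p of 0.136, 0.0753 and 0.082), as that of the spleen did with the erythroid covariate.

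**Figure D5:**
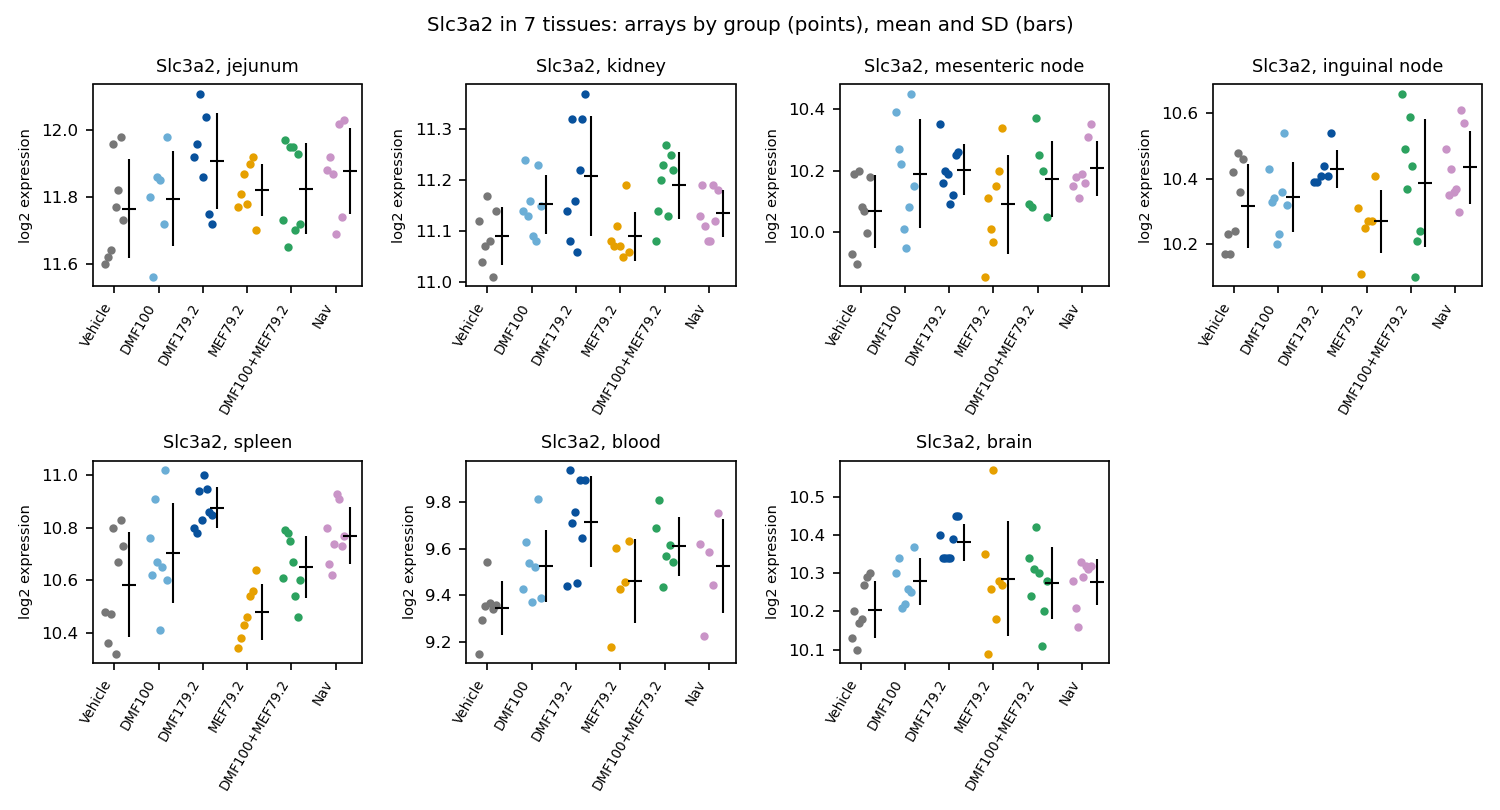
Log2 level of Slc3a2 by group in each of the 7 tissues. Each point is 1 array, the dash is the group mean and the bar the SD, and levels are comparable only within a panel. In brain all 8 DMF179.2 arrays lie above the highest vehicle array at 10.3.

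Whether a response differed among the 7 tissues was tested with limma as the tissue by treatment interaction, over 7849 genes and the 30 members tested in every tissue. Under DMF179.2, 12 of the 30 members differed among tissues, a share near the 35.1% of all genes. Under the combination 10 differed (background 16.1%), under DMF100 6 (3.52%) and under MEF79.2 1 (9.28%). Slc7a5 gave the smallest adjusted p under DMF179.2 (7.06e-09), with a fall of 0.66 in jejunum, a rise of 0.24 in kidney and an uncalled 0.48 ± 0.17 in blood. Nupr1 (limma adjusted p = 9.79e-08) was lower in jejunum, at -1.29, while its 0.62 ± 0.23 in mesenteric node was not called (0.0877). Atf5 (9.6e-08) fell in jejunum and rose in blood. Asns (limma adjusted p = 0.000551) rose in spleen by 1.58 ± 0.43 and stood at -0.64 ± 0.23 in kidney. Psph (limma adjusted p = 9.9e-05) rose in kidney and mesenteric node, with 0.02 ± 0.07 in jejunum and -0.05 ± 0.05 in spleen. Under DMF100 the smallest adjusted p was that of Atf4 itself (0.00147), which rose in kidney and was -0.14 ± 0.05 in jejunum (0.31). Psat1 was the 1 member whose response to MEF79.2 differed among tissues (limma adjusted p = 0.0278), and with the replicate number as a random block Asns, Atf5, Ddit3 and Slc7a5 were called as well (19.3% of all genes).

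The Nav group shows how far a group with no named dose stood from vehicle. In the kidney, where 49.8% of genes were called, 4 members rose and 7 fell. Hsp90b1 was lowest in this group, at 10.16, 10.32 and 10.49 (-0.6 ± 0.08, limma adjusted p = 3.32e-07). Dnajb9 (-0.51 ± 0.09, 1.36e-05), Dnajc3 (-0.5 ± 0.09) and Hspa5 (-0.37 ± 0.1, 0.00251) also fell there, whereas Psph (0.01, 0.883) and Ddit4 (0.13, 0.0687) were not called. In the mesenteric node 8 members rose and 5 fell (50.6% of genes called), with Dnajc3 at -0.71 ± 0.08, Hsp90b1 at -0.67 ± 0.09 and Phgdh at 0.68 ± 0.12. Without the acinar-rich arrays 10 of these 13 were called in the node (not Creld2, Hspa5 and Psat1), and all 11 in the kidney. In the jejunum Hsp90b1 (-0.33 ± 0.09, limma adjusted p = 0.0245), Xbp1 (-0.24 ± 0.07, 0.0245), Manf (-0.45 ± 0.12, 0.0259), Pdia6 (-0.37 ± 0.12, 0.0419) and Psph (-0.22 ± 0.07, 0.0431) fell (7.87% of genes called). These 4 chaperone genes are the ones that fell under DMF179.2 in that tissue, and both comparisons share the vehicle arrays. In brain Hspa5 (-0.19 ± 0.05, 0.0347) and Hsp90b1 (-0.24 ± 0.06, 0.0264) fell (3.83%), and spleen (13.4%), blood (0.0193%) and inguinal node (0.0189%) had 0 member calls with limma, with 3 members higher and 5 lower, 1 higher and 2 lower, and 2 higher and 1 lower at an unadjusted p under 0.05.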

How the data were processed

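Log2 values of 45141 probe sets on 308 Affymetrix HT MG-430 PM arrays were used as deposited by the authors. The submitters' processing notes list limma 3.4.5, R 2.11.1, GCRMA and RMA without saying which step each served. All arrays of a tissue share 1 lowest value, at which 18.48 to 23.34% of values lie, so low levels are compressed and tissues were treated as normalised apart. Groups came from sample titles, since another label gives DMF100 and the combination the same text. The number of arrays limits the precision, and the labels do not tie arrays to animals, so p-values measure the spread between arrays.

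Of the probe sets 28898 carry 1 gene symbol in the platform annotation, 551 several and 15692 none, and 17097 genes were each read from the single-symbol probe set with the highest mean. limma 3.58.1 (R 4.3.3, lmFit and eBayes) was fitted per tissue over all 6 groups, and was tested on simulated data. Of the 67 member calls, 27 had another tested probe set, which had the same sign in 25. Marker relations used 100000 within-group permutations.

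By the rule for names, up to 3 called members per tissue and branch with the smallest adjusted p are given by array, other called members by their difference, Atf4, Ddit3, Xbp1 and Hspa5 in every tissue, and other pathway genes by counts with up to 3 names per comparison; further pathway genes were named after their values were seen. The members and all lists were chosen with earlier results of these data known. Alternatives were the expression filter, renewed quantile normalisation, median centring, the mean of all probe sets, fits of 2 groups alone, array weights, a hybridisation control covariate, the replicate block, and leaving out each blood MEF79.2 array. Added after seeing the data were 2 marker covariates, the removal of arrays rich in acinar markers and leaving out each blood Nav array. Promoter sequences are RefSeq's (GRCm38.p6).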

Additional observations from a re-analysis of the deposited data

Results flagged for a closer look

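In 8 of 130 groups checked, 1 array stood far from the others by Dixon's test at the 95% level, and chance flags about 1 in 20. Nupr1 in jejunum vehicle replicate 8 was highest at 12.07 (others 11.47 to 11.68). Xbp1 in jejunum MEF79.2 replicate 29 was highest at 10.71 (others 10.43 to 10.54). Combination replicate 39 of the kidney was highest for both Psph, at 9.31 (others 8.87 to 9.05), and Ddit4, at 11.17 (others 10.88 to 11). Edem1 in kidney MEF79.2 replicate 29 was highest at 9.57 (others 9.3 to 9.41). Ddit3 in mesenteric node combination replicate 36 was lowest at 8.83 (others 9 to 9.06). Gars in spleen DMF100 replicate 15 was lowest at 9.95 (others 10.17 to 10.35). Pdia4 in spleen vehicle replicate 6 was lowest at 7.64 (others 8.07 to 8.44).

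Responses that differed among tissues by limma's interaction test are given with their adjusted p. For DMF179.2 the share of members that differed was near the 35.1% of all genes. Under DMF100 these were Atf4 (0.00147), Herpud1 (0.00339), Atf5 (0.00554), Slc7a5 (0.00829), Shmt2 (0.0218) and Xbp1 (0.0359). Under DMF179.2, the amino acid carriers Slc7a5 (7.06e-09) and Slc7a1 (0.00862) differed, as did the biosynthetic enzymes Psph (9.9e-05), Asns (0.000551) and Psat1 (0.000875) and the synthetase Gars (0.00729). The factors Atf5 (9.6e-08), Nupr1 (9.79e-08), Atf4 (0.00779) and Cebpg (0.0103) differed under that dose too, with Herpud1 (0.0219) and Edem1 (0.03) of the chaperone branch. Under MEF79.2 this was Psat1 (0.0278). Under the combination the ATF4 branch gave Slc7a5 (0.00026), Atf5 (0.00472), Ddit3 (0.0114), Psat1 (0.0138), Nupr1 (0.0189), Shmt2 (0.0307) and Psph (0.0325), and the chaperone branch Hsp90b1 (0.0143), Edem1 (0.0312) and Hspa5 (0.0494).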

How the results depend on the processing

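No member call changed direction under any alternative run. Of 229 counts of members called in a dosed group against vehicle recomputed under the planned settings, 185 stayed within 1.5 times the main count and 44 did not, and of 20 under settings added after seeing the data 14 did and 6 did not. Of the 67 single calls, 53 held with no filter, 59 of 59 tested with a stricter one, 64 after renewed quantile normalisation, 53 after centring, 54 of 65 with the mean of all probe sets, 39 in fits of 2 groups alone, 57 with array weights and 40 with the hybridisation control covariate. Counts of called members that moved follow by setting, and the cause was not tested. With no filter they were 1 (blood DMF179.2), 1 (jejunum combination) and 2 (mesenteric node MEF79.2). A stricter filter gave 0 (jejunum combination), 1 (jejunum DMF100) and 5 (mesenteric node combination), and renewed quantile normalisation 1 (blood DMF179.2). Centred arrays gave 0 (brain DMF179.2), 1 (jejunum combination), 1 (jejunum DMF100), 2 (mesenteric node MEF79.2), and between treatments 2 (kidney DMF179.2 against combination), 1 (mesenteric node combination against DMF100) and 3 (mesenteric node MEF79.2 against DMF100). The mean of all probe sets gave 1 (brain DMF100), 1 (brain MEF79.2), 1 (jejunum combination), 5 (mesenteric node combination), 3 (mesenteric node DMF179.2) and 2 (mesenteric node MEF79.2). Fits of 2 groups alone gave 1 (blood DMF179.2), 1 (brain DMF100), 0 (jejunum combination), 7 (kidney combination), 4 (kidney DMF179.2), 0 (mesenteric node MEF79.2) and 0 (spleen DMF100), and 0 between treatments in brain (MEF79.2 against DMF100), kidney (DMF179.2 against DMF100) and mesenteric node (combination or MEF79.2 against DMF100). Array weights gave 3, 3, 2 and 2 in brain (combination, DMF100, DMF179.2, MEF79.2), 1 and 1 in inguinal node (DMF100, DMF179.2), 6 and 5 in jejunum (DMF100, MEF79.2), 6, 1 and 2 in mesenteric node (combination, DMF100, DMF179.2), and 2 and 11 in spleen (DMF100, DMF179.2). The hybridisation control covariate gave 1 (blood DMF179.2), 0 (brain DMF179.2), 1 (brain MEF79.2), 0, 1 and 2 in jejunum (combination, DMF100, DMF179.2) and 1 (mesenteric node MEF79.2). Of the added settings, the Paneth and goblet covariate gave 1 (jejunum combination) and 7 (jejunum DMF179.2), the erythroid covariate 0 (spleen DMF179.2) and 0 (spleen DMF179.2 against combination), and removal of acinar-rich arrays 0 for mesenteric node combination and MEF79.2 and 0 for spleen DMF100, with 2 for spleen Nav (Atf4 and Manf). Between treatments that removal gave 2 (kidney DMF179.2 against combination), 0 and 0 (mesenteric node combination and MEF79.2 against DMF100) and 5 (spleen DMF179.2 against DMF100). Leaving out each of the 5 blood MEF79.2 arrays, or of the 5 blood Nav arrays, gave 0 calls throughout.

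Replicate numbers recur only across tissues. Between tissues of the same treatment, same-numbered arrays had a mean correlation of 0.159 (532 of 866 pairs above 0.1) as deviations from group means. Other pairs had -0.0227 (1254 of 5914 above 0.1). Same-numbered arrays were thus more alike, though the labels do not say that a number stands for an animal. The main interaction test made no use of the numbers. With the replicate block the interaction test called 21 members under DMF179.2 (45.7% of all genes), 5 under MEF79.2 (19.3%), 7 under DMF100 (6.36%) and 14 under the combination (27.9%).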
